A study of Mus musculus with 12 samples.

Results

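The PEA3 subfamily of ETS transcription factors consists of Etv1, Etv4 and Etv5, and these genes were taken by name from the gene count table of 12 SVR tumors. The table listed 54232 genes, of which 12897 had enough counts to be tested (minimum count of 10 in edgeR's filter). All 3 members were among them. SVR is a mouse endothelial cell line that forms angiosarcomas, and it was grown under the skin of nude mice. Nude mice lack a thymus and therefore mature T cells. All tumors came from this line, for which the labels give the strain C57BL/6. The mice received vehicle (control), trametinib at 1 mg/kg, cediranib at 3 mg/kg, or trametinib and cediranib at these doses, by daily gavage, with 3 tumors in each group. Trametinib is an inhibitor of the kinase MEK, which activates ERK, and cediranib is an inhibitor of the VEGF receptor kinases. Per the study's methods the animals were young adults, in all groups. The labels describe dosing up to ulceration or a size limit, the methods also a harvest at a fixed time, and no source used here says which applies to the sequenced tumors. Whether time on drug differed between the groups was not tested.

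PEA3 factors bind DNA through the ETS domain, which recognizes a GGAA core, and they activate genes of branching growth, migration and invasion. Their transcripts are among the classical outputs of receptor tyrosine kinase and ERK signaling. Part of this control runs through Capicua, a repressor that ERK signaling relieves from its target genes, and the proteins themselves are degraded through the ubiquitin ligase COP1.

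The members lie on 3 chromosomes of GRCm38. Etv1 (ENSMUSG00000004151) is at chr12:38779380-38866249 on the forward strand, Etv4 (ENSMUSG00000017724) at chr11:101769742-101785310 on the reverse strand and Etv5 (ENSMUSG00000013089) at chr16:22381309-22439719 on the reverse strand. All are protein coding in GENCODE M21, and 0 other genes of that annotation overlap any of them. The RefSeq promoter table for GRCm38.p6 held 4 windows for 2 of the 3 members, Etv1 and Etv5, each from 250 bases before to 50 bases after a start site. The Capicua octamers TGAATGAA, TGAATGGA, TCAATGAA and TCAATGGA and the ETS site CCGGAAGT were searched on both strands. None of them occurred in the 4 windows, while 3.83% of all 32841 windows of this length held at least 1 of the Capicua octamers and 3.89% held the ETS site. The 7 letters TGAATGG, searched after this sequence had been seen, occurred 3 times before the second Etv5 start site. At least 1 copy was present in 3.59% of all windows, at least 2 in 0.0853% and at least 3 in 0.00304%, which is this 1 window of Etv5 itself. As the letters were searched after it had been seen, these shares are a description and not a test. The upstream bases of this window are shown because of these matches, which stand in capitals, and those of the first Etv1 window are shown beside them as a member without a match.
Etv5, chr16:22438369-22438618, reverse strand: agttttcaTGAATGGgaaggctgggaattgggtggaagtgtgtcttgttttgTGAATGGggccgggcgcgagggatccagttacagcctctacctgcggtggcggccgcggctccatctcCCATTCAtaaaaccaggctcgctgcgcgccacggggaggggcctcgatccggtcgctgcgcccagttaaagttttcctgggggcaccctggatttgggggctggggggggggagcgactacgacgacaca
Etv1, chr12:38779832-38780081, forward strand: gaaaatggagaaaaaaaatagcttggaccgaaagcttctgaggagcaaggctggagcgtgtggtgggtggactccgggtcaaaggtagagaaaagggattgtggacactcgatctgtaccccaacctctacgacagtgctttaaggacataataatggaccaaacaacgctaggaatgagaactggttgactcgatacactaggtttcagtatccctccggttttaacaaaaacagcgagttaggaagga
The first bases of the matches lie 242, 198 and 130 bases before the start site, the last of them on the opposite strand. Both stretches lie within the gene's span and overlap 0 exon bases in GENCODE M21. A match is a run of letters and not evidence of binding.

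Counts were made from RNA of the whole tumor after capture with exome probes, so a count reflects the probes of a gene beside its transcripts. The host was a mouse like the donor of the cell line, so reads of tumor cells and of host cells were not separated. In such samples fewer cells of a type and less RNA per cell cannot be told apart. The libraries held 9478865 to 11666094 counts, and 3 counts, the limit that a count of 0 allows, stood for 0.251 to 0.348 CPM, which are counts relative to the library total after scaling with TMM factors. The summed counts of a member over the 3 tumors of a group ran from 183, for Etv5 with trametinib, to 2901, for Etv4 with cediranib, so all values lay well above this limit. A gene was called at a false discovery rate (FDR) of 0.05 over all 12897 genes with a change of at least 1.5 on the log2 scale in either direction. The endothelial list, which marks the lineage of SVR cells, had 9 of 11 genes tested. Its summed level was 245 to 476 CPM in control, 111 to 167 in trametinib treated, 157 to 371 in cediranib treated and 78.7 to 137 in combination treated tumors. Emcn, which did not pass the filter, was at 0 in all 3 trametinib treated tumors and had only 6 counts in all over the control tumors. The summed level of 25 epidermal genes, of which 22 were tested, was 53.9 to 104 CPM in control, 48.3 to 76.4 with trametinib, 82.9 to 318 with cediranib and 360 to 576 with the combination. Of these, Dsc3, Dsg3, Pkp1, Perp, Ivl, Evpl, Ovol1 and Tgm3 were at 0 in all trametinib treated tumors. Several were also low in control. Dsg3 was at 0 in all control tumors too, and the summed control counts were 2 for Ovol1, 2 for Tgm3 and 9 for Evpl. Skeletal muscle genes summed to between 8.57 and 27211 CPM and fibroblast genes to between 1577 and 36789 CPM, with control and trametinib treated tumors overlapping in both lists. Fibroblast genes summed to 8066 CPM or more with trametinib, to 2629 to 5311 with the combination and to 1577 to 6701 with cediranib. Skeletal muscle genes summed to 257 CPM or more with trametinib, to 38.8 to 794 with the combination and to 25.3 to 192 with cediranib. The 6 Schwann cell genes summed to 5.65 to 9.10 CPM in control, 2.93 to 7.43 with trametinib, 6.04 to 11.8 with cediranib and 12.2 to 20.6 with the combination. The part of these cells in the results was not tested, apart from a fit with an epidermal score that is given where it changed a call.

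Etv4 and Etv5 transcripts fell in trametinib treated tumors to a small fraction of their control level, overlapped with control in the cediranib treated tumors and lay between these levels with the combination. Etv1 also had its lowest level with trametinib and did not pass the test, and in the other groups it varied more between tumors than Etv4 and Etv5 did.

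Etv4, the founding member first described as a factor binding the polyomavirus enhancer, measured 89.1, 81.7 and 78.6 CPM in control tumors and 8.25, 14.6 and 11.95 CPM in trametinib treated tumors. It measured 92.2, 71.7 and 116 CPM with cediranib and 29.7, 36.4 and 25.7 CPM with the combination. Each trametinib value lay below each combination value, and each combination value lay below every control and cediranib value. The means were 93.4 ± 22.3 CPM (SD, n = 3) for cediranib, 83.1 ± 5.42 for control, 30.6 ± 5.43 for combination and 11.6 ± 3.21 for trametinib. Of the neighbours in this order only cediranib and control overlapped.

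Etv5, the member best known for its role in lung branching and in the renewal of spermatogonial stem cells, measured 69.3, 76.6 and 71.9 CPM in control tumors and 7.61, 3.83 and 5.52 CPM with trametinib. The cediranib treated tumors had 56.2, 79.5 and 44.6 CPM and the combination treated tumors 16.0, 21.0 and 14.0 CPM. The order was control (72.6 ± 3.70 CPM, SD, n = 3), cediranib (60.1 ± 17.8), combination (17.01 ± 3.62) and trametinib (5.65 ± 1.89). As for Etv4, control and cediranib overlapped and the other neighbours did not. The control tumors varied little, with a coefficient of variation of 5.10% for Etv5 and 6.52% for Etv4.

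Etv1, which is known as a survival factor of gastrointestinal stromal tumors, measured 39.8, 33.6 and 15.6 CPM in control tumors and 8.16, 4.30 and 5.43 CPM with trametinib. It measured 13.0, 48.5 and 14.2 CPM with cediranib and 11.4, 60.1 and 22.1 CPM with the combination. Replicate 2 was the highest tumor in both of these groups, and the groups other than trametinib overlapped one another. The means were 31.2 ± 25.6 CPM (SD, n = 3) with the combination, 29.7 ± 12.5 in control, 25.2 ± 20.2 with cediranib and 5.96 ± 1.98 with trametinib. The coefficient of variation of Etv1 was 42.3% in control, 79.9% with cediranib and 82.0% with the combination. Per kilobase of the exons in the table, levels in control were 26.8 ± 1.75 CPM per kilobase for Etv4, 17.7 ± 0.902 for Etv5 and 2.23 ± 0.944 for Etv1. Exome probes cover genes unequally, which limits this comparison between genes.

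**Figure D1:**
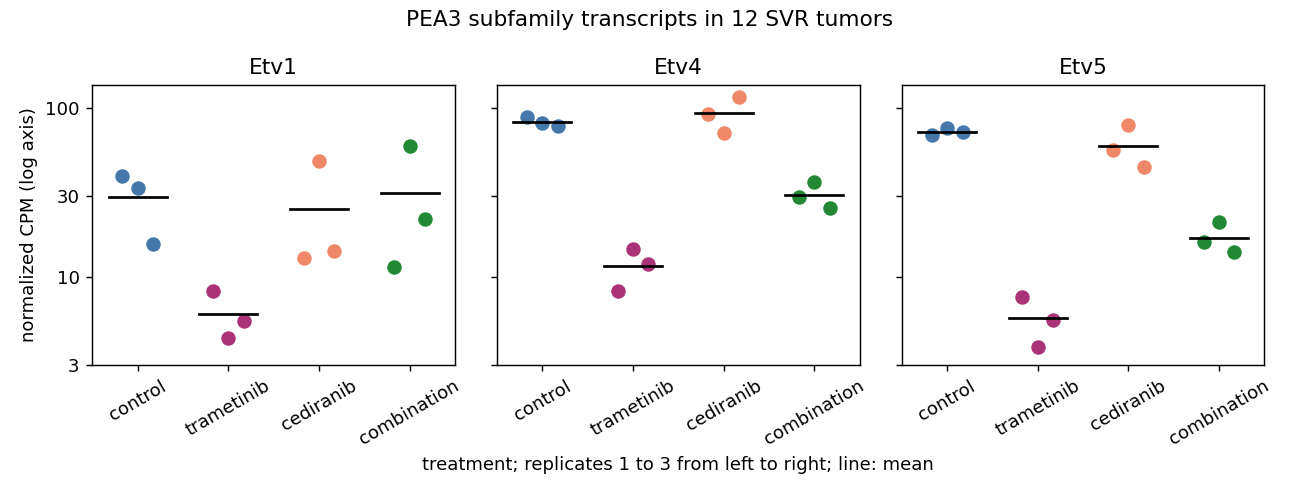
Normalized CPM on a log axis for Etv1, Etv4 and Etv5 by treatment, with replicates 1 to 3 from left to right as points and the group mean as a line. For Etv4 and Etv5 the trametinib treated tumors lie below the combination treated tumors (25.7 to 36.4 and 14.0 to 21.0 CPM), which lie below control and cediranib, while for Etv1 the trametinib treated tumors alone (4.30 to 8.16 CPM) stand apart.

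The first comparison addressed the effect of MEK inhibition. In trametinib treated tumors compared to control, Etv4 was 7.18-fold lower, with a log2 fold change of -2.84 (SE 0.23, 95% interval -3.35 to -2.34, FDR 5.79e-05 by edgeR's quasi-likelihood test). Etv5 was 12.7-fold lower (log2 fold change -3.67, SE 0.28, 95% interval -4.27 to -3.07, FDR 3.35e-05). By p, Etv5 stood at rank 6 and Etv4 at rank 7 of the 12897 genes tested. Of all genes, 1.43% were called lower in this comparison, against 2 of the 3 members. Etv1 had a log2 fold change of -2.31 with an SE of 0.66 (95% interval -3.75 to -0.86) and did not pass the test (FDR 0.0616). The tumors of both groups did not overlap for any of the 3 members, as for 25.8% of all genes tested. For Etv1 the call depended on the test. The FDR was 0.0180 with DESeq2, 0.00813 with edgeR's likelihood ratio test, 0.0163 with only these 2 groups in the fit and 0.0475 with the epidermal score as a covariate. Leaving out single tumors gave log2 fold changes of -2.61 to -2.05 for Etv1, with an FDR of up to 0.172. For Etv4 they gave -3.04 to -2.65 and for Etv5 -3.94 to -3.47, with both called each time.

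VEGF receptor inhibition alone was assessed by comparing cediranib treated tumors to control, where 0% of all genes were called and 4.32% (557 genes) had an unadjusted p under 0.05. DESeq2 called 10 genes, edgeR's likelihood ratio test called 14, and the quasi-likelihood test called 7 without cediranib replicate 2 and 0 without any other of the 6 tumors compared. The log2 fold changes were 0.17 (95% interval -0.29 to 0.63) for Etv4, -0.27 (-0.80 to 0.25) for Etv5 and -0.23 (-1.57 to 1.10) for Etv1, each with an FDR of 0.999. For Etv4 and Etv5 these intervals lay apart from those of trametinib against control. For Etv1 the intervals of both comparisons overlapped. The value of Etv1 was -1.13 without cediranib replicate 2. It was above 0 without control replicate 1 (0.022), cediranib replicate 1 (0.078) or cediranib replicate 3 (0.040), and Etv4 had -0.031 without cediranib replicate 3.

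The combination was compared to control, to trametinib and to cediranib. Compared to control, Etv5 was 4.26-fold lower (log2 fold change -2.09, SE 0.25, 95% interval -2.64 to -1.54, FDR 0.000934) and was called. Etv4 was 2.71-fold lower (log2 fold change -1.44, SE 0.22, 95% interval -1.92 to -0.96). Its FDR of 0.00355 passed the threshold, but the change was under the minimum of 1.5, so it was not called. Of all genes, 1.71% were called lower and 1.91% higher. The groups did not overlap for Etv4 and Etv5, as for 31.3% of all genes. Etv1 had a log2 fold change of 0.075 (95% interval -1.26 to 1.41, FDR 0.954). This value rested on single tumors, with -0.82 without combination replicate 2, -0.23 without control replicate 3 and 0.47 without combination replicate 1. Without combination replicate 2, Etv4 reached -1.58 and was called. The epidermal genes stood apart in the combination treated tumors. With their score as a covariate Etv4 was called (-1.92, FDR 0.0290) and Etv5 was not (-1.62, FDR 0.0758).

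Compared to trametinib, every combination treated tumor had a higher value than every trametinib treated tumor for each of the 3 members, and groups did not overlap for 24.2% of all genes. Only Etv5 passed both thresholds, with a 2.99-fold higher level (log2 fold change 1.58, SE 0.27, 95% interval 1.00 to 2.16, FDR 0.0269). Over all genes 0.535% were called higher. Etv4 was 2.64-fold higher (log2 fold change 1.40, SE 0.23, FDR 0.0237), under the fold minimum. Leaving out single tumors gave 1.20 to 1.59 for Etv4, with an FDR of up to 0.0831 and no call. Etv1 had a log2 fold change of 2.38 (SE 0.66, 95% interval 0.94 to 3.83, FDR 0.0941). The Etv5 call was lost when any of 5 tumors was left out. Its log2 fold change was then 1.37 (FDR 0.0798) without trametinib replicate 2, 1.56 (0.0770) without trametinib replicate 3, 1.63 (0.0635) without combination replicate 1, 1.41 (0.0851) without combination replicate 2 and 1.70 (0.0543) without combination replicate 3. Etv1 had 1.502 without combination replicate 2. With the epidermal score, 0 genes were called in this comparison, and the log2 fold changes were 0.76 (FDR 0.885) for Etv4, 2.20 (FDR 0.363) for Etv5 and 3.57 (FDR 0.781) for Etv1. The score was -0.98 to -0.69 in trametinib treated and 2.96 to 3.64 in combination treated tumors. Score and treatment thus ran nearly together, and this fit can hardly separate them.

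Compared to cediranib, tumors with the combination, which adds trametinib, had 3.53-fold lower Etv5 (log2 fold change -1.82, SE 0.25, FDR 0.00206) and 3.05-fold lower Etv4 (-1.61, SE 0.22, FDR 0.00195). Both were called, as were 1.16% of all genes in this direction, and both groups of tumors did not overlap for either gene, as for 28.4% of all genes. The change of Etv4 fell under the minimum of 1.5 without cediranib replicate 3 (-1.41) or combination replicate 3 (-1.49). Etv1 had a log2 fold change of 0.31 (95% interval -1.03 to 1.65, FDR 0.806), which was -0.57 without combination replicate 2, -0.0073 without cediranib replicate 1 and 1.20 without cediranib replicate 2. Between the single agents, trametinib treated tumors had lower Etv5 (log2 fold change -3.40, SE 0.27, FDR 4.82e-05) and Etv4 (-3.01, SE 0.23, FDR 3.97e-05) than cediranib treated tumors, against 1.97% of all genes called lower. For Etv1 the value was -2.07 (SE 0.66, FDR 0.0741), and it was -1.18 without cediranib replicate 2. None of the 3 members overlapped between the single agents, as for 28.3% of all genes. These comparisons share tumors with those above and are not independent of them.

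An interaction contrast asked whether the change that came with cediranib differed between tumors with and without trametinib. The log2 value was above 0 for all 3 members, with 1.23 (SE 0.31, 95% interval 0.56 to 1.91) for Etv4, 1.85 (SE 0.36, 1.07 to 2.63) for Etv5 and 2.62 (SE 0.90, 0.66 to 4.57) for Etv1. Leaving out single tumors gave 1.04 to 1.44 for Etv4 and 1.64 to 2.12 for Etv5. For Etv1 it gave 1.75 without combination replicate 2 and 3.51 without cediranib replicate 2, the lowest and highest values. Etv5 had rank 10 of all genes by p. None passed after adjustment over all genes (edgeR FDR 0.504, 0.305 and 0.665), and 0% of all genes did, while 7.05% (909 genes), with these 3 among them, had an unadjusted p under 0.05. DESeq2 passed 37 genes, among them Etv5 (FDR 0.000751) and Etv4 (FDR 0.0361), and the likelihood ratio test passed 28, among them Etv5 (FDR 0.00232).

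**Figure D2:**
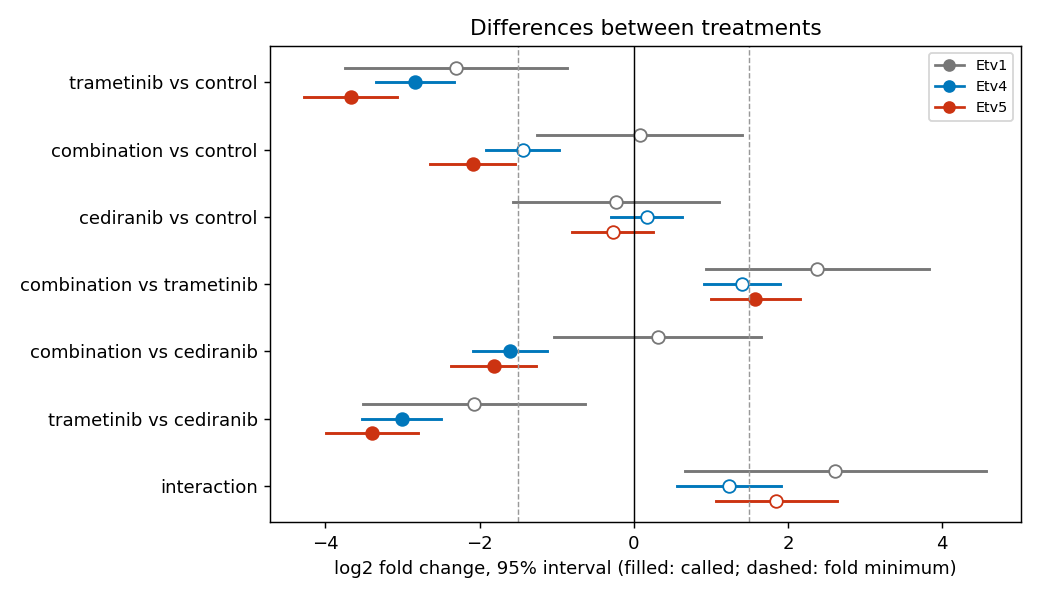
Log2 fold changes of Etv1, Etv4 and Etv5 in each comparison with 95% intervals, where filled points were called and dashed lines mark the fold minimum of 1.5, which does not apply to the interaction. Etv4 and Etv5 lie left of the minimum with trametinib against control (-2.84 and -3.67) and near 0 with cediranib, and the intervals of Etv1 are the widest.

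The ratio of 2 members within a tumor is free of library scaling and shows whether they changed unequally. In 18 comparisons of 3 against 3 tumors, a two-sided exact permutation test can give no p below 0.1. The log2 ratio of Etv1 to Etv5 was -0.80, -1.18 and -2.19 in control and 0.10, 0.16 and -0.02 in trametinib treated tumors, a difference of 1.47. It was 1.95 higher in combination treated tumors than in control and 2.04 higher than with cediranib, and 1.56 higher with trametinib than with cediranib. Each of these reached the smallest exact p of 0.1, which is 0.36 after adjustment over the 18. The log2 ratio of Etv5 to Etv4 was -0.36, -0.09 and -0.13 in control and -0.88, -0.79 and -0.87 in combination treated tumors, a difference of -0.65 with the same exact p of 0.1 (adjusted p = 0.36). In trametinib treated tumors this ratio spread from -1.87 to -0.11, and the difference of -0.83 from control had an exact p of 0.3. The other comparisons had an exact p of 0.2 to 1.

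The ETS family comprises 27 genes here, and 8 of the 24 outside the PEA3 subfamily did not pass the filter on low counts (Fev, Etv2, Etv3l, Elf3, Elf5, Spdef, Spib and Spic). In trametinib treated tumors compared to control, 0 of the other 16 tested were called, beside 2.4% of all genes called in either direction. With so small a share, 0 of 16 does not set these genes apart from all genes. Their median log2 fold change was -0.15, beside 0.0057 over all genes. Of these 16, 3 passed the FDR with changes under the minimum, and the share of all genes doing so was not counted. The 3 were Fli1, an endothelial and blood cell factor (-1.41, FDR 0.0215), Etv6, a repressor (-0.78, FDR 0.0111), and Elk3, a ternary complex factor that acts with serum response factor (-0.69, FDR 0.00706). Etv6 and Elk3 were named after their values had been seen. Of the 16, Fli1 was the gene called in the comparison of combination and control (log2 fold change -1.78, SE 0.32, FDR 0.00744). The median was -0.27, beside 0.0015 over all genes. The lowest values of the 16 were those of Erg, -1.90 with trametinib and -2.37 with the combination, neither of them called. With the combination this lay below the value of Etv5 (-2.09). Mean Erg was 16.99 CPM in control (coefficient of variation 69.0%), 4.56 with trametinib and 3.27 with the combination. Erg was also named after its values had been seen. The endothelial marker list was lower in the same groups, with 5 of 9 tested genes called lower with trametinib and 6 with the combination. Of all genes, 1.43% and 1.71% were called lower in these comparisons. A fit with the epidermal score called 2 of the 16 with trametinib and 0 with the combination. Ehf, an epithelial factor, had 2 counts in all over the control tumors, so its fold against control was not measured.

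**Figure D3:**
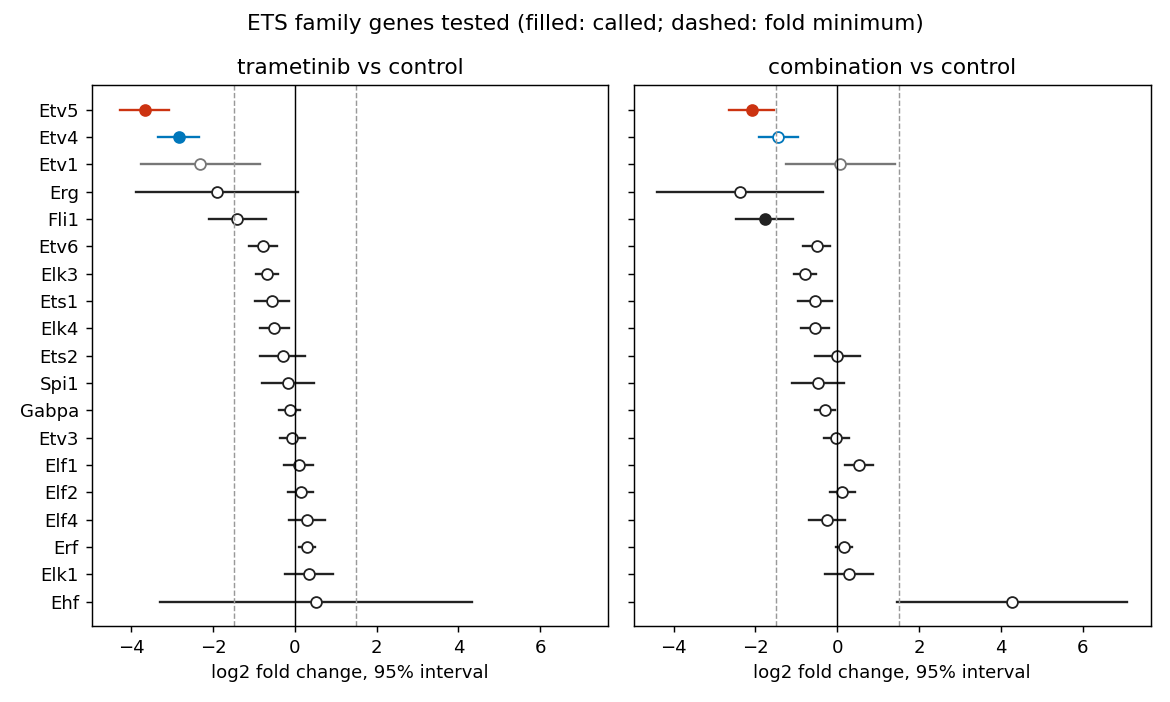
Log2 fold changes with 95% intervals of the 19 ETS genes tested, for trametinib (left) and combination (right) against control, with filled points called and dashed lines at the fold minimum. Etv5 and Etv4 have the most negative values with trametinib, and of the other genes Fli1 alone is filled, with -1.78 in the combination.

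The make-up of the ETS family in the tumors moved with these changes. By mean CPM per kilobase in control tumors, Etv4 ranked 3 and Etv5 ranked 5 among the 19 ETS genes tested, and Etv1 ranked 16. With trametinib the ranks were 13, 16 and 18, with cediranib 3, 5 and 16, and with the combination 6, 14 and 15. The PEA3 share of the summed level per kilobase of the 19 genes was 16.6% to 20.2% in control and 2.91% to 3.51% in trametinib treated tumors. It was 18.1% to 22.6% with cediranib and 7.37% to 12.2% with the combination. The ranges of control and cediranib overlapped, and the trametinib and combination ranges overlapped with no other.

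The genes listed as induced by ERK served as a reference for the pathway that trametinib blocks. Of 22 genes, 20 were tested, and 11 were called lower with trametinib (median log2 fold change -1.90) and 10 with the combination (median -1.34) compared to control. Over all genes 1.43% and 1.71% were called lower in these comparisons. With cediranib 0 of the 20 were called (median -0.02), and edgeR's quasi-likelihood test called 0 of all genes there. The 4 with the smallest p were Egr1, an immediate early transcription factor (-4.49, SE 0.23, FDR 2.15e-06), Dusp6, a phosphatase of ERK (-3.70, SE 0.24, FDR 1.59e-05), Ccnd1, which encodes cyclin D1 (-2.29, SE 0.16, FDR 1.83e-05), and Dusp5, a nuclear ERK phosphatase (-3.38, SE 0.31, FDR 0.000101). In the combination these had log2 fold changes of -3.23, -1.91, -1.60 and -2.62 compared to control. Compared to trametinib, 1 of the 20 was called higher with the combination, Dusp6 (1.79, SE 0.24, FDR 0.0196), beside 0.535% of all genes. The median of the 20 was 0.73. With the epidermal score 4 of the 20 were called with the combination.

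The level of the combination can be placed between trametinib (0%) and control (100%) on the log2 scale, as a description without a test, since both differences share the trametinib treated tumors. Etv4 stood at 49.3%, Etv5 at 43.0% and Etv1 at 103%. The place of Etv1 rested on combination replicate 2, without which it was 64.8%. With the epidermal score, an alternative for this measure that was added after the data had been seen, the places were 28.5% for Etv4, 57.7% for Etv5 and 135% for Etv1. That score ran nearly together with the treatment, as given above. The 11 ERK-induced genes called lower with trametinib stood at 11.6% to 64.2%, with a median of 30.2%, and all 184 genes called lower had a median of 24.5%. Of the 184, 53 stood at or above Etv5 and 36 at or above Etv4, both counts including the gene itself.

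**Figure D4:**
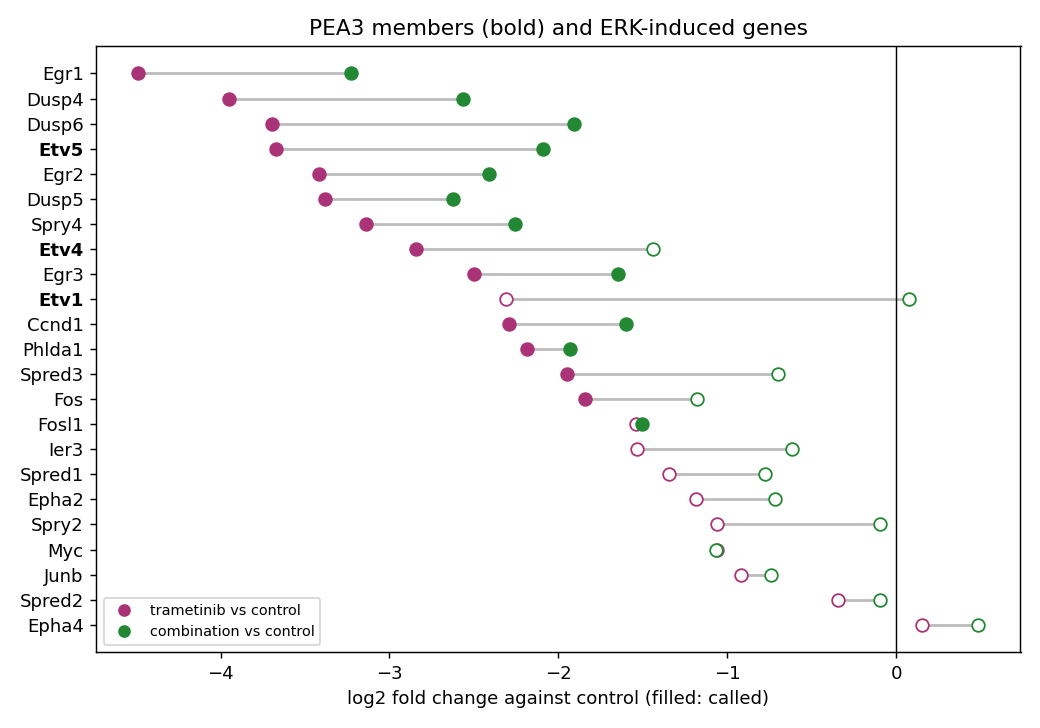
Log2 fold changes against control for the PEA3 members (bold) and the 20 ERK-induced genes tested, with trametinib and combination joined by a line and filled points called. Etv5 (-3.67 and -2.09) and Etv4 (-2.84 and -1.44) lie among the genes with large changes, and the line of Etv1 (-2.31 to 0.075) crosses 0.

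The repressor of PEA3 genes and the machinery of their proteins were examined next. Cic, which encodes Capicua, had a log2 fold change of 0.45 (SE 0.12, FDR 0.0536) with trametinib and 0.46 (SE 0.12, FDR 0.0366) with the combination compared to control, both under the fold minimum. Its partners Atxn1 (0.41, FDR 0.383) and Atxn1l (-0.14, FDR 0.737) did not pass with trametinib, nor with the combination (0.04, FDR 0.938, and 0.23, FDR 0.453). Of 9 genes listed as repressed by Capicua, 8 were tested. With trametinib 5 were called lower and with the combination 3, with medians of -2.05 and -0.75, beside 1.43% and 1.71% of all genes called lower. The 4 with the smallest p with trametinib were Dusp6, already given, Spry4, a feedback inhibitor of receptor signaling (-3.14, FDR 0.000388), Dusp4, a nuclear phosphatase (-3.95, FDR 0.000986), and Spred3, a Sprouty-related inhibitor (-1.95, FDR 0.00115). All of these 4 are also in the ERK-induced list, so the lists are not independent of each other.

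Of 6 genes of PEA3 protein turnover, 1 was called with trametinib, Trib1, an adaptor of COP1 (log2 fold change -1.60, SE 0.17, FDR 0.000311), beside 1.43% of all genes called lower. With the combination Trib1 had -1.37 (SE 0.17, FDR 0.00103), under the fold minimum. The other adaptor Trib2 had -1.33 (SE 0.46, FDR 0.118) with trametinib and -0.42 (FDR 0.592) with the combination. The ubiquitin ligase gene Cop1 (-0.02, FDR 0.947) and its complex partners Det1 (-0.32, FDR 0.685), Ddb1 (-0.02, FDR 0.950) and Cul4a (0.06, FDR 0.922) did not pass with trametinib. With the combination these had -0.11, -0.43, -0.33 and -0.14, with an FDR of 0.135 or more. The 3 coactivator genes Crebbp, Ep300 and Med25 had log2 fold changes of -0.17 to 0.16 in both comparisons, and 0 were called. These values are of transcripts, and protein levels were not measured here.

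Of 12 genes described as PEA3 targets in other systems, 10 were tested. With trametinib 1 was called lower, Mmp9, a secreted matrix protease (log2 fold change -2.66, SE 0.72, FDR 0.0497), and the median was -0.24. With the combination 1 was called higher, Erbb2, a receptor tyrosine kinase that epithelia express (2.03, SE 0.36, FDR 0.00696), and the median was -0.41. Mmp9 had -1.51 (FDR 0.172) with the combination and Erbb2 had 1.25 (FDR 0.0610) with trametinib. Over all genes, 1.43% were called lower with trametinib and 1.91% higher with the combination. Epidermal genes were higher in the same comparison as Erbb2, with 10 of 22 called higher in combination treated tumors against control. With trametinib, where Erbb2 had 1.25, 19 of the 22 lay below 0 (median -2.28). The part of epidermal cells in the level of Erbb2 was not tested.

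Over the 12 tumors the likeness of a gene to each member was measured as the root-mean-square difference between log2 CPM values, each gene centred on its mean. The smaller the value, the closer is the pattern. Nearest to Etv4 were Prkg2 (0.261), Calcrl (0.392), Hmga2 (0.392), Ccnd1 (0.397) and 1700006J14Rik (0.439), against a median of 1.29 over all genes. Calcrl encodes an adrenomedullin receptor of endothelial cells, and Hmga2 an architectural chromatin protein. Nearest to Etv5 were Dusp6 (0.267), Acap1 (0.380), Spry4 (0.474), Dusp5 (0.511) and Ptk2b (0.511), with a median of 1.55 over all genes. Dusp6, Spry4 and Dusp5 are in the ERK-induced list, and the same holds for Ccnd1. All 10 of these genes were called lower with trametinib, with log2 fold changes of -3.70 to -2.29, beside 1.43% of all genes. They were chosen for likeness over the same tumors, the trametinib treated ones included. Their direction therefore followed from the choice and is no separate result.

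Etv5 was itself rank 31 of 12896 genes in likeness to Etv4 (0.574). Etv1 lay at 1.08 from Etv4 and at 1.07 from Etv5, which were rank 1304 and rank 1123 in likeness to it. Its nearest genes were Nlrp3, an inflammasome sensor (0.624), Ccr1, a chemokine receptor of myeloid cells (0.676), Pde4b (0.682), Nfkbie (0.736) and Gm5454 (0.742), less close than the neighbours of the other members, with a median of 1.21 over all genes. Nlrp3 (FDR 0.0124), Ccr1 (log2 fold change -3.49, FDR 0.00124) and Pde4b (-1.65, FDR 0.0385) were called lower with trametinib. The choice by likeness over the same tumors favors this direction here too. Nlrp3 had 0 counts in all 3 trametinib treated tumors, so no fold is given for it, and all 5 had an FDR of 0.296 or more with the combination compared to control. The summed level of 10 macrophage genes was 388 to 657 CPM in control, 296 to 399 with trametinib, 284 to 421 with cediranib and 166 to 303 with the combination. Most of this sum came from Mrc1 (mean 358 CPM in control and 208 with trametinib) and Csf1r (112 and 96.8). With trametinib against control 5 of the 10 lay above 0 and 5 below (median log2 fold change -0.11), and 0 were called. The part of macrophages in the level of Etv1 was not tested.

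**Figure D5:**
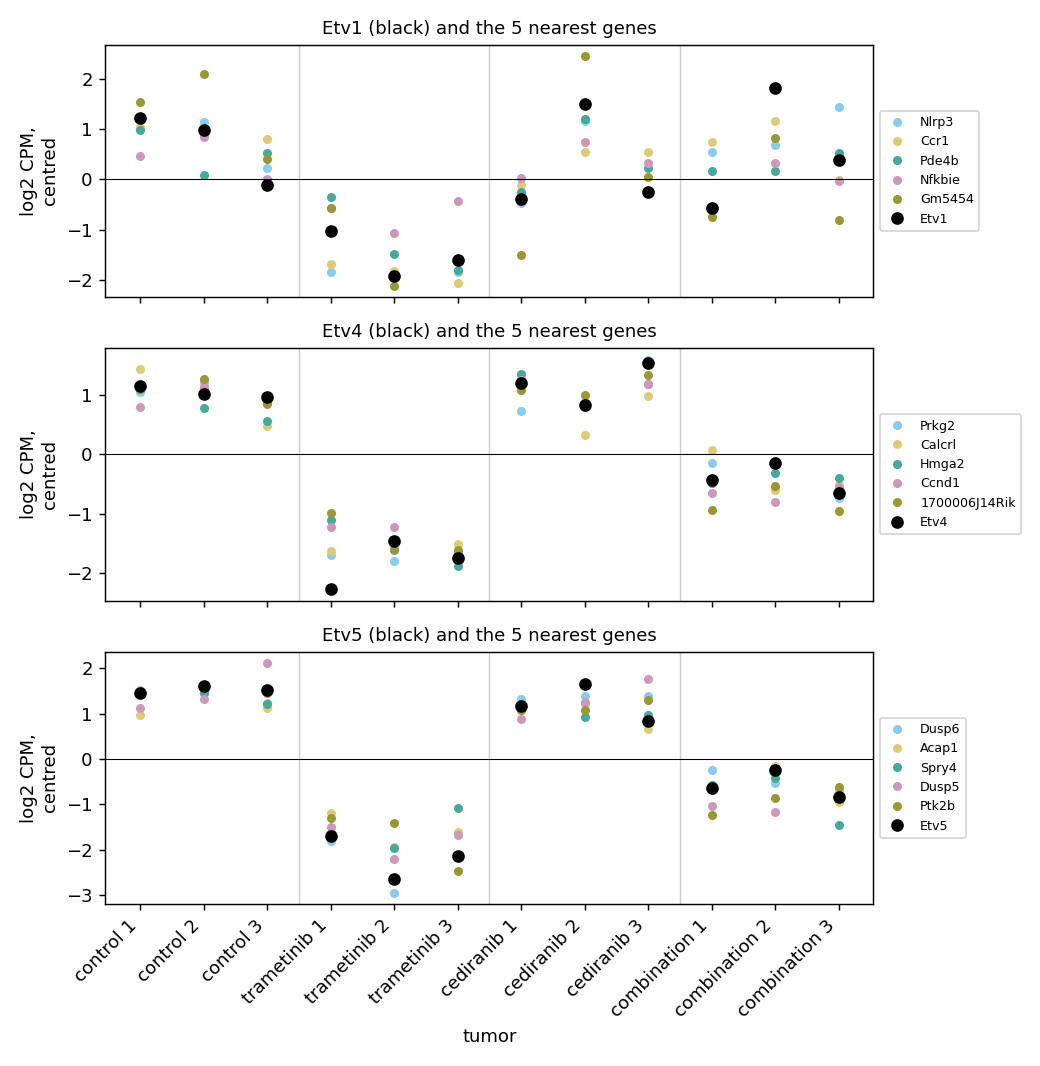
Log2 CPM centred on the mean over the 12 tumors for Etv1, Etv4 and Etv5 (black) and the 5 genes nearest to each (colored), with tumors ordered by treatment. The neighbours of Etv4 and Etv5 follow them within 0.261 to 0.511, and those of Etv1 (0.624 to 0.742) spread more widely, with tumor combination 2 highest for Etv1.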

How the data were processed

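RNA of 12 tumors was sequenced after exome capture. The deposited values were raw counts per gene, which the authors made by aligning to GRCm38 with STAR 2.7.1a and counting with featureCounts 1.6.0 after bcl2fastq 1.8.4, per the labels. For the strand setting and reads with multiple alignments, the sources used here state nothing. Groups came from titles and treatment labels. R 4.3.3 and edgeR 4.0.16 were used for TMM scaling and for 1 quasi-likelihood fit of all 12 libraries, with Benjamini-Hochberg adjustment over 12897 genes. The filter was filterByExpr (minimum count 10, minimum total 15). Standard errors were derived from the fold change and F, and a prior count of 2 entered log2 CPM. The scripts were tested on simulated data.

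The members, lists, tests and alternatives were chosen with earlier results of these data known. The 3 members were reported in full. Of the other lists, called genes were named, at most 4 by p for lists of more than 8 genes, with every Capicua and turnover gene, and the 5 nearest genes of each member. The annotation was GENCODE M21. Alternatives used RLE factors, library totals, no filter, DESeq2 1.42.0, the likelihood ratio test, 2 groups only, a replicate block, an epidermal score of 22 genes and the omission of each library. Depth limits cover counting error only. The 3 tumors of a group were separate samples, and p-values measure the spread between them. A comparison of protein sequences was not made.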

Additional observations from a re-analysis of the deposited data

How the results depend on the processing

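Trametinib against control and trametinib against cediranib kept direction and call for Etv4 and Etv5 under all alternatives, and RLE factors changed no call of a member. With library totals alone, which moved the median of all genes in combination against trametinib by 0.12, Etv4 reached 1.54 there and was called, so the excess over the median stayed under the minimum. Etv1 was called lower with trametinib against control by DESeq2 (-2.32), the likelihood ratio test (-2.31), 2 groups only (-2.32), the epidermal score (-2.65) and without the filter (-2.32). DESeq2, the likelihood ratio test and no filter also called it in combination against trametinib (2.40, 2.39 and 2.40) and in trametinib against cediranib (-2.08, -2.08 and -2.07). The interaction passed for Etv5 with the same 3 settings (1.87, 1.85 and 1.88), for Etv4 with DESeq2 (1.25) and no filter (1.27), and for Etv1 with no filter (2.65). With the epidermal score Etv4 was called in combination against control (-1.92) and had -0.10 in cediranib against control, while Etv5 was no longer called in combination against control (-1.62) or trametinib (2.20). The cause was not tested.

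Of the other ETS genes, 1 was called with trametinib without the filter and 2 with the epidermal score. With the combination 3 were called without the filter, 2 with DESeq2, the likelihood ratio test and 2 groups only, and 0 with the epidermal score, where 4 ERK-induced genes were called.

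Leaving out 1 library gave -1.13 to 0.078 for Etv1 and -0.031 to 0.33 for Etv4 in cediranib against control. In combination against control the ranges were -0.82 to 0.47 for Etv1 and -1.58 to -1.33 for Etv4. In combination against cediranib they were -0.57 to 1.20 for Etv1 and -1.77 to -1.41 for Etv4, and in combination against trametinib 1.37 to 1.85 for Etv5. The other ETS genes called with trametinib numbered 0 to 1.

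The same-numbered tumors did not deviate together. The correlation of their deviations was -0.22 to 0.36, over 0.1 in 3 of 18 pairs, and 0 of 12 libraries correlated best with their own number. With the replicate block, Etv1 in combination against control was -0.091, the calls of the members did not change, and the count of genes called in combination against trametinib went from 87 to 57. Without the block that count was 347 with DESeq2, 401 with the likelihood ratio test, 274 with 2 groups only, 773 without the filter and 0 with the epidermal score. In combination against control it was 466, with 246 higher, and 52 with the epidermal score, 1129 without the filter and 511 with library totals (320 higher, median of all genes 0.13). In trametinib against control it was 310, and 687 without the filter. Without the filter it was 637 in combination against cediranib, from 316, and 973 in trametinib against cediranib, from 450, where it was 721 with the likelihood ratio test and 148 with the epidermal score. Cediranib against control gave 324 and the interaction 373 without the filter, from 0 in both. Without combination replicate 2 the count in combination against trametinib was 0, and without any other of the 6 tumors of these groups it was 3 to 21. Leaving out 1 tumor gave 237 to 575 calls in combination against control, 188 to 275 in combination against cediranib and 254 to 562 in trametinib against cediranib.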
